A study of Mus musculus with 9 samples.

Results

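The enzymes that build and break down glycerophospholipids and triglycerides were examined in the aging mouse kidney as a set of 40 genes. The genes were chosen by name for their place in the pathway, with earlier results of these data known. Of these, 38 had a probe set of their own on the array, out of 19938 genes measured in this way. Chkb shared its probe set with another gene and Etnk2 had none with a single symbol, so both were left out. RNA came from whole kidneys of female wild type mice on a mixed FVB/C57BL6 background, perfused before the kidneys were taken, with 4 mice at 14 weeks and 5 mice at 96 weeks and 1 array for each mouse. The study measured phospholipids in aging kidneys as well, in other mice on a C57BL6 background. The question addressed here was whether transcripts of the enzymes that make, remodel and hydrolyse such lipids differed between the ages.

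Phosphatidylcholine and phosphatidylethanolamine are made by the Kennedy pathway, in which choline or ethanolamine is phosphorylated, activated with CTP and joined to diacylglycerol. Diacylglycerol comes from glycerol-3-phosphate by stepwise acylation to phosphatidic acid, which the lipins dephosphorylate. It is shared with triglyceride synthesis, and triglyceride stored in droplets is released again by a chain of lipases. Acyl chains of finished phospholipids are exchanged by lysophospholipid acyltransferases, which set how unsaturated a membrane is. The kidney relies on fatty acids for fuel in the proximal tubule, whose cells have large brush border and mitochondrial membranes.

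None of the 38 genes passed at an adjusted p under 0.05 in limma, whereas 6.72% of all genes did, 4.31% higher and 2.4% lower at 96 weeks. That split over all genes was 860 higher and 479 lower. It became 486 higher and 566 lower when quantile normalization was repeated over only the probe sets with 1 gene symbol. At an unadjusted p under 0.05 in limma 12 of the 38 passed (31.6%), close to the 28.5% of all genes. Of these, 8 were higher (13.3% of all genes) and 4 were lower (15.3% of all genes), but 3 were higher and 5 lower when quantile normalization was repeated, and 4 and 5 with cyclic loess. The methods' t-test gave 0 genes after adjustment and 12 before it. The smallest adjusted p-values were 0.0562 for the acyltransferase Agpat2 and 0.0584 for the lipase Mgll. At the thresholds of the methods, at least 1.5-fold with an unadjusted p under 0.05, Lpin1 alone passed, on the lower side (0.321% of all genes lower, 1.28% higher, 1.6% in either direction), and it did not without replicate 3 or replicate 4 at 96 weeks. Values of the 2 ages did not overlap for 4 genes (10.5%, against 13.3% of all genes). These were Lpcat2 and Lpcat3, which were higher, and Chpt1 and Lclat1, which were lower (7.49% and 5.79% of all genes in these directions). In whole tissue, fewer cells of a type and less RNA per cell cannot be told apart.

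Differences were small. The median log2 fold change was 0.03 over the 38 genes and -0.03 over all genes, and the median size without sign was 0.09 against 0.11. For 33 of the 38 genes the 95% interval of the difference lay within 1.5-fold in either direction (86.8%, against 92.1% of all genes). The other 5 intervals, which reached beyond 1.5-fold, were those of Lpin1, Lpcat2, Mboat1, Mgll and Pcyt2. The standard deviation was larger at 96 weeks for 24 of the 38 genes (63.2%, against 58.9% of all genes).

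**Figure D1:**
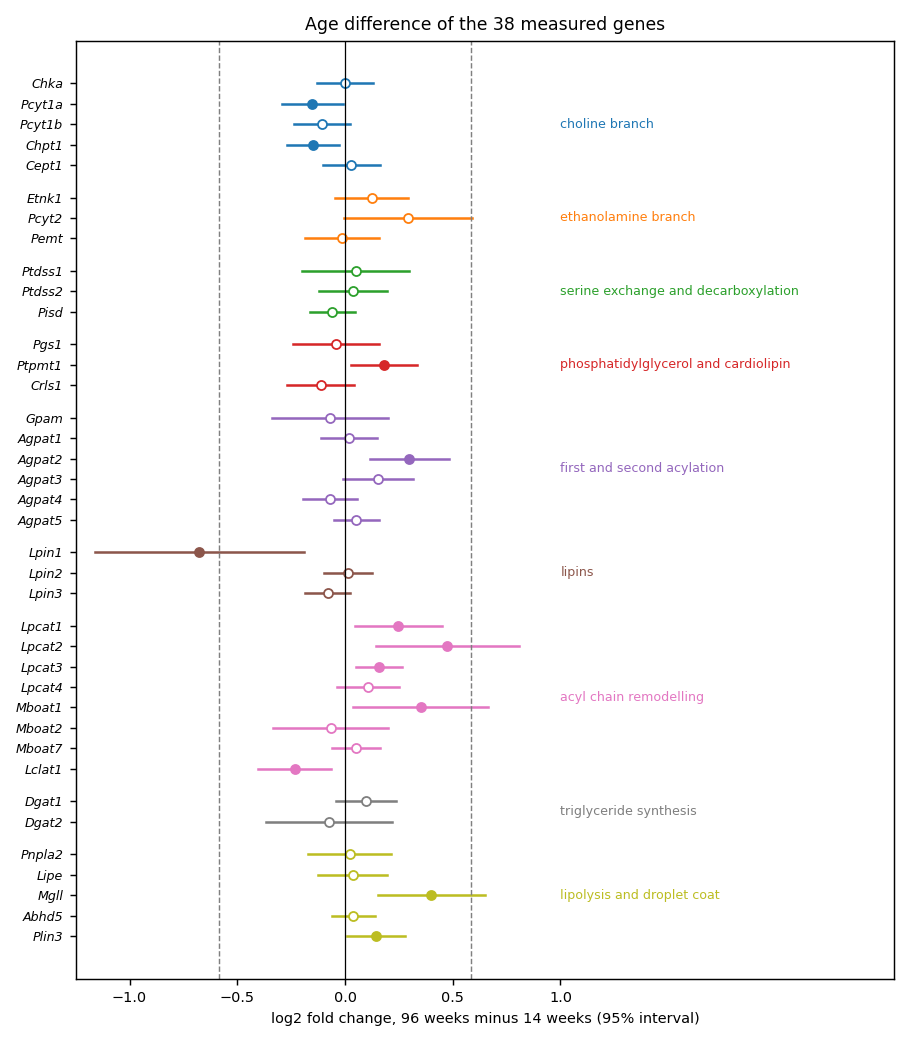
Log2 fold change (96 weeks minus 14 weeks, horizontal axis) of the 38 measured genes, ordered by role. Points are estimates from limma and lines 95% intervals, filled points have an unadjusted p under 0.05, and dashed lines mark 1.5-fold. Most intervals cover 0, and Lpin1 lies furthest from it at -0.68.

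Lpin1, Mgll and Agpat2 are shown with the sequence upstream of a RefSeq transcript start (GRCm38.p6), because Lpin1 had the largest difference of the 38 genes and the other pair the smallest p-values. Each run holds the 250 bases before the start, 5′ to 3′ on the strand of the gene, with motifs in capitals. The Lpin1 start is an internal one of the annotated gene.
Lpin1, chr12:16610967-16611216, minus strand: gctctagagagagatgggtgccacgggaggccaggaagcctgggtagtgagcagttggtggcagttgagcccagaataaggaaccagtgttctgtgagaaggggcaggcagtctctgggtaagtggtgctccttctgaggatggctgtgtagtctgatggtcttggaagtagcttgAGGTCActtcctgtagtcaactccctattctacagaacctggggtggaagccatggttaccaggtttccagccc
Mgll, chr6:88724162-88724411, plus strand: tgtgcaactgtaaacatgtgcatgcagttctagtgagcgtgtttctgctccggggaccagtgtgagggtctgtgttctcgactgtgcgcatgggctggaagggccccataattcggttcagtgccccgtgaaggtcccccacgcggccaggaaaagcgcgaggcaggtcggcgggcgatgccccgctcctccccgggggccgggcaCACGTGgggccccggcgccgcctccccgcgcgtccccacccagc
Agpat2, chr2:26604418-26604667, minus strand: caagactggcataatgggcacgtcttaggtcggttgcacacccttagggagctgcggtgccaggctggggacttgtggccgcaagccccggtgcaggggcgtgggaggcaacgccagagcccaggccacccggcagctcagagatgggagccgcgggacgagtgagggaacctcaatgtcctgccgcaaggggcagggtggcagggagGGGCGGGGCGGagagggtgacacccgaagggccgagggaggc
Both strands were searched for the E-box CACGTG, the CCAAT box, the GC box GGGCGG, the nuclear receptor motif AGGTCA, its direct repeat with 1 base between (DR1), the element TCAAGGTCA of estrogen-related receptors and the sterol response element TCACCCCAC. AGGTCA is also part of both longer nuclear receptor elements. The capitals mark AGGTCA at position -74 in Lpin1, an E-box at -44 in Mgll and a pair of overlapping GC boxes from -42 in Agpat2, counted from the start. RefSeq windows were at hand for 33 of the 38 genes, 48 in all. GC boxes were in 58.3% of them and in 32.7% of all 32851 windows, and CCAAT boxes in 31.2% and 33.8%. AGGTCA was in 10.4% (14% of all windows) and an E-box in 8.33% (6.02% of all windows). The sterol response element was in 1 of the 33 genes, Pcyt1a, at 1 position that lay in 2 overlapping windows, and in 0.496% of all windows. Neither DR1 nor TCAAGGTCA was in a window of these genes (0.0335% and 0.387% of all windows).

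In the choline branch, Chpt1 and Pcyt1a were the 2 genes at an unadjusted p under 0.05, both with negative log2 fold changes, and none passed after adjustment. Chpt1, the cholinephosphotransferase that makes phosphatidylcholine from CDP-choline, had log2 values of 12.59, 12.55, 12.50 and 12.49 at 14 weeks and of 12.42, 12.45, 12.28, 12.32 and 12.46 at 96 weeks. Every old kidney lay below every young one, with 12.46 and 12.49 as the nearest pair. The log2 fold change was -0.15 (SE, the standard error, 0.054, with an adjusted p of 0.12 in limma). Pcyt1a, the CTP-using enzyme that sets the pace of the branch, had values of 8.01, 7.86, 8.01 and 8.15 at 14 weeks and of 7.81, 7.94, 7.79, 7.86 and 7.89 at 96 weeks. Replicate 2 at 14 weeks lay among the old kidneys, and the log2 fold change was -0.15 (SE 0.064, adjusted p = 0.15). Its paralog Pcyt1b, the only one of the 38 genes below the 30th percentile of signal, had a log2 fold change of -0.11. Choline kinase Chka and Cept1, which uses both CDP-choline and CDP-ethanolamine, had intervals of -0.13 to 0.13 and -0.10 to 0.16.

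None of the ethanolamine and serine genes had an unadjusted p under 0.05 in limma. Pcyt2, which catalyses the corresponding step of the ethanolamine branch, had log2 values of 7.23, 7.44, 7.40 and 7.02 at 14 weeks and of 7.47, 7.99, 7.35, 7.40 and 7.62 at 96 weeks. The groups overlapped, replicate 2 at 96 weeks stood highest, and the log2 fold change of 0.29 had an interval from -0.0067 to 0.59 (adjusted p = 0.18). The ethanolamine kinase Etnk1 had a log2 fold change of 0.12 (interval -0.05 to 0.29), and Pemt, which methylates phosphatidylethanolamine to phosphatidylcholine, of -0.01 (interval -0.19 to 0.16). Ptdss1 and Ptdss2, which exchange the head group of phosphatidylcholine or phosphatidylethanolamine for serine, had log2 fold changes of 0.05 (interval -0.20 to 0.30) and 0.04 (interval -0.12 to 0.19). Pisd, the mitochondrial enzyme that turns phosphatidylserine into phosphatidylethanolamine, had values of 6.34, 6.27, 6.28 and 6.27 at 14 weeks and of 6.20, 6.27, 6.15, 6.27 and 6.27 at 96 weeks. Its log2 fold change was -0.06 (interval -0.16 to 0.05). For Etnk1, Pemt, Ptdss1, Ptdss2 and Pisd differences of 1.5-fold thus lay outside the interval.

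Of the mitochondrial genes of phosphatidylglycerol and cardiolipin, Ptpmt1 was higher at an unadjusted p under 0.05. Ptpmt1, the phosphatase that releases phosphatidylglycerol, had log2 values of 8.83, 8.94, 8.71 and 8.70 at 14 weeks and of 9.12, 8.99, 8.98, 8.86 and 8.93 at 96 weeks. Replicate 2 at 14 weeks lay among the old kidneys, and the log2 fold change was 0.18 (SE 0.069, adjusted p = 0.12). It was 0.104 (unadjusted p = 0.142) with quantile normalization repeated and 0.118 (unadjusted p = 0.0997) with cyclic loess, which ends the call. The cardiolipin synthase Crls1 had a log2 fold change of -0.11 (interval -0.27 to 0.04). Pgs1, which makes phosphatidylglycerophosphate, was listed at 1 identical value in 6 of the 9 arrays and had a log2 fold change of -0.04.

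Agpat2 had the smallest p-value of the set. This endoplasmic reticulum enzyme adds the second acyl chain to make phosphatidic acid and is needed for adipose tissue. Its log2 values were 6.57, 6.68, 6.82 and 6.93 at 14 weeks and 7.06, 7.19, 7.01, 6.90 and 7.09 at 96 weeks. Only replicate 4 at 96 weeks, at 6.90, lay below the highest young kidney. The log2 fold change was 0.30 (SE 0.082, interval 0.12 to 0.48, adjusted p = 0.0562), and it did not pass in 17 of 20 alternative settings, where the adjusted p reached 0.158. It passed without that array (0.34, adjusted p = 0.048), with array weights and with a filter on dim genes. Agpat3, an acyltransferase of the same step, had a log2 fold change of 0.15 (interval -0.0089 to 0.32). Agpat1, Agpat4 and Agpat5 of the same family had values of 0.02, -0.07 and 0.05, and Gpam, which adds the first acyl chain at mitochondria, of -0.07.

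Lpin1, which converts phosphatidic acid to diacylglycerol and also acts in the nucleus as a transcriptional coactivator, differed most between the ages. Its log2 values were 8.30, 8.10, 8.08 and 7.74 at 14 weeks, with a mean of 8.05 ± 0.23 (SD, n = 4). At 96 weeks they were 7.98, 7.66, 6.88, 6.94 and 7.43, with a mean of 7.38 ± 0.47 (SD, n = 5). Replicate 1 at 96 weeks lay within the young range, and replicates 3 and 4 were far below the others. The log2 fold change was -0.68 (SE 0.22, interval -1.16 to -0.19, adjusted p = 0.086), which is 1.60-fold lower. Of 20 alternative settings it passed in 1, without replicate 1 at 96 weeks (-0.83, adjusted p = 0.045), and without replicates 3 and 4 it was -0.36 (adjusted p = 0.18). Lpin2 and Lpin3, which catalyse the same reaction, had log2 fold changes of 0.01 (interval -0.10 to 0.12) and -0.08 (interval -0.18 to 0.02).

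Acyl chain remodelling held the most genes at an unadjusted p under 0.05, 5 of 8, with 4 higher and 1 lower (28.5% of all genes, 13.3% higher and 15.3% lower). With quantile normalization repeated or with cyclic loess, Lpcat2 and Lclat1 were the 2 left, 1 in each direction. Lpcat3, which places polyunsaturated chains into phosphatidylcholine, had log2 values of 10.03, 9.99, 9.88 and 9.96 at 14 weeks and of 10.09, 10.17, 10.18, 10.09 and 10.08 at 96 weeks. The groups did not overlap and the spread was narrow at both ages. Its log2 fold change was 0.16 (SE 0.049, adjusted p = 0.079), but 0.067 (adjusted p = 0.446) with quantile normalization repeated, where the groups overlapped, as they did with cyclic loess. Lclat1, the lysocardiolipin acyltransferase, had values of 9.24, 9.04, 9.04 and 9.27 at 14 weeks and of 8.98, 8.92, 8.93, 8.73 and 9.01 at 96 weeks. All old kidneys were lower, with a log2 fold change of -0.23 (SE 0.076, adjusted p = 0.087), and of 20 alternative settings it passed in 1, repeated quantile normalization (-0.31, adjusted p = 0.049). Mboat1, an acyltransferase of lysophosphatidylethanolamine and lysophosphatidylserine, had values of 7.37, 7.62, 7.35 and 7.41 at 14 weeks and of 7.67, 7.79, 8.31, 7.62 and 7.54 at 96 weeks. Replicate 3 at 96 weeks stood apart, and the log2 fold change was 0.35 (SE 0.14, adjusted p = 0.14).

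Lpcat2 and Lpcat1 had their highest values in replicate 4 at 96 weeks, the kidney with the highest means of macrophage, T cell, and B and plasma cell markers. Lpcat2, which is found in inflammatory cells and makes platelet-activating factor as well as phosphatidylcholine, had log2 values of 5.95, 6.08, 5.95 and 6.05 at 14 weeks and of 6.50, 6.10, 6.75, 6.87 and 6.18 at 96 weeks. The ages did not overlap, although replicate 2 at 96 weeks lay just above the young kidneys. The SD was 0.067 at 14 weeks and 0.34 at 96 weeks, and the log2 fold change was 0.47 (SE 0.15, interval 0.14 to 0.81, adjusted p = 0.081). Lpcat1, known for saturated phosphatidylcholine in lung, had values of 7.36, 7.40, 7.28 and 7.52 at 14 weeks and of 7.65, 7.50, 7.63, 7.93 and 7.49 at 96 weeks (log2 fold change 0.25, SE 0.091, adjusted p = 0.12). The mean level of 12 macrophage markers was 6.74 to 6.80 at 14 weeks, and 7.47, 7.11, 8.19, 8.35 and 7.22 in replicates 1 to 5 at 96 weeks. All 12 had positive log2 fold changes and 3 passed at an adjusted p under 0.05 in limma (Lyz2, Csf1r and Tyrobp). Among the old kidneys Csf1r went the other way, at 8.33 and 8.50 in replicates 3 and 4 and at 8.61 to 8.78 in the others. Ordered by Lpcat2, the 5 old kidneys stood in the same order as by the macrophage mean. The 14-week kidneys lay below all of them on both. The mean of 5 B and plasma cell markers was 5.08 to 5.18 at 14 weeks and 6.21 to 8.11 at 96 weeks, and that of 6 T cell markers 5.67 to 5.81 and 5.67 to 7.80, with positive log2 fold changes for all 5 and all 6 of these genes. The part of any of these immune cells in the Lpcat2 and Lpcat1 values was not tested. The remaining remodelling genes Lpcat4 (0.11), Mboat2 (-0.07) and Mboat7 (0.05), which places arachidonate into phosphatidylinositol, had intervals that included 0.

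**Figure D2:**
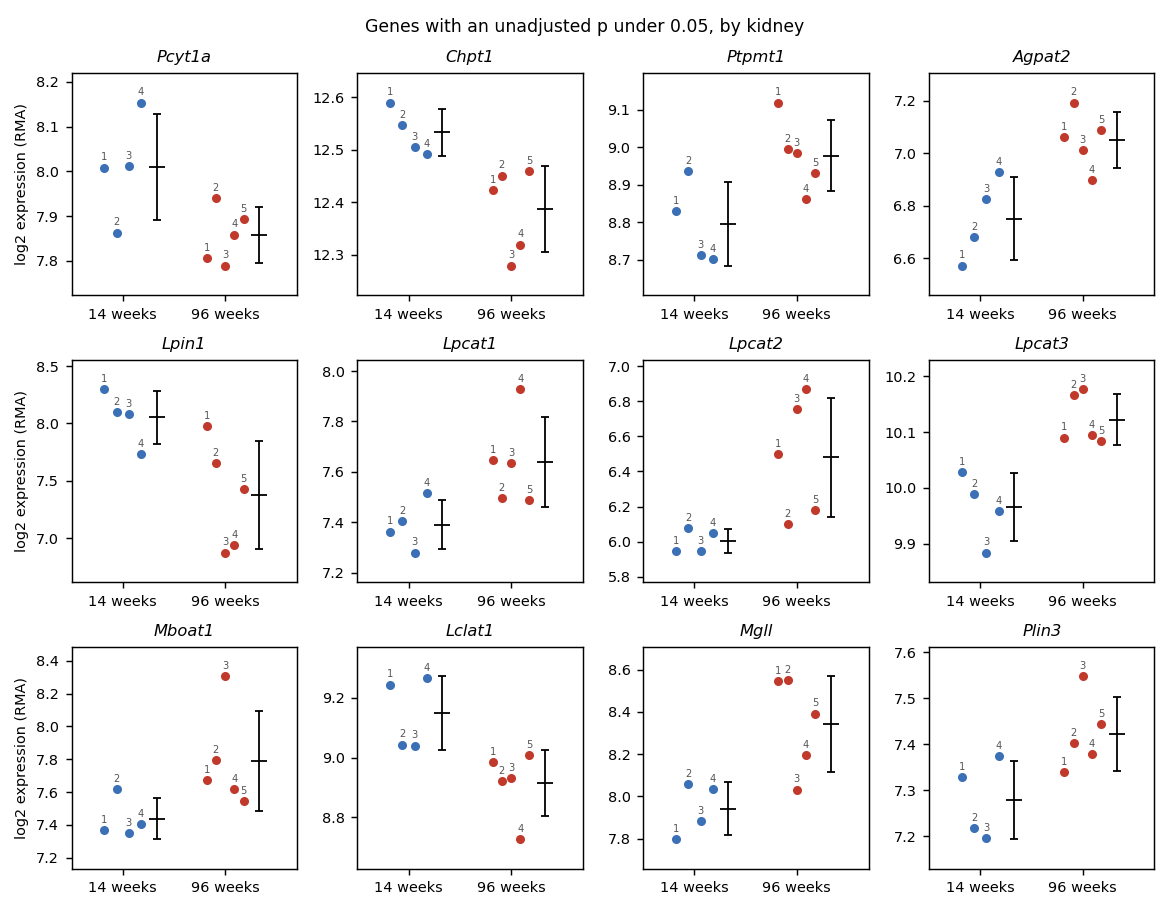
RMA log2 expression in each kidney (vertical axis, scaled per gene) of the 12 genes with an unadjusted p under 0.05 in limma. Points are mice with their replicate number (4 at 14 weeks, 5 at 96 weeks) and the black mark is the mean with 1 SD. Groups are apart for Chpt1, Lpcat2, Lpcat3 and Lclat1 and overlap in the other 8 panels.

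Of the genes of triglyceride synthesis and lipolysis, the monoglyceride lipase Mgll stood out. Mgll cleaves the last acyl chain from glycerol and also ends the signal of the endocannabinoid 2-arachidonoylglycerol. Its log2 values were 7.80, 8.06, 7.88 and 8.04 at 14 weeks and 8.54, 8.55, 8.03, 8.20 and 8.39 at 96 weeks. Only replicate 3 at 96 weeks lay within the young range. The log2 fold change was 0.40 (SE 0.11, interval 0.15 to 0.65, adjusted p = 0.0584), and it did not pass in 16 of 20 alternative settings. The value was 0.305 with quantile normalization repeated, and the adjusted p was 0.132 by the methods' t-test. It passed without that array (0.48, adjusted p = 0.025). Plin3, a coat protein of lipid droplets, had values of 7.33, 7.22, 7.20 and 7.37 at 14 weeks and of 7.34, 7.40, 7.55, 7.38 and 7.44 at 96 weeks (log2 fold change 0.14, SE 0.060, adjusted p = 0.15). With quantile normalization repeated it was at 0.078 (unadjusted p = 0.266) and with cyclic loess at 0.108 (unadjusted p = 0.12). Replicate 1 at 96 weeks overlapped with the young kidneys.

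The enzymes before Mgll in lipolysis differed little. Adipose triglyceride lipase (Pnpla2), its activator Abhd5 and hormone-sensitive lipase (Lipe) had log2 fold changes of 0.02 (interval -0.17 to 0.21), 0.04 (interval -0.06 to 0.14) and 0.03 (interval -0.13 to 0.20). Dgat1, which makes triglyceride from diacylglycerol, had values of 8.19, 8.24, 8.21 and 8.05 at 14 weeks and of 8.26, 8.37, 8.34, 8.12 and 8.26 at 96 weeks, with a log2 fold change of 0.10 (interval -0.04 to 0.24). The unrelated enzyme Dgat2 had values from 9.11 to 9.26 at 14 weeks and from 8.70 to 9.49 at 96 weeks, a log2 fold change of -0.07, and an SD of 0.064 and 0.29 at the 2 ages. Adipose tissue uses several of these genes strongly, and replicate 2 at 14 weeks held the highest adipocyte markers. The mean of 8 adipocyte markers was 6.57 in that array, 5.95 to 6.05 in the other 3 young kidneys and 5.89 to 6.11 in the old ones. Car3 and Adipoq were at 7.83 and 5.5 in that array, their highest values. Fabp4 and Lep were highest in old kidneys, at 10.14 in replicate 5 and 4.85 in replicate 2. Retn was highest in replicate 3 at 14 weeks, at 5.93. Over 4 brown adipocyte markers the mean was 5.77 in replicate 2 at 14 weeks. It was 4.76 to 4.84 in the other young kidneys and 4.74 to 5.43 in the old ones. Of these 4, Ucp1 was at 6.88 in that array and between 4.15 and 4.71 elsewhere, whereas Cox8b was at 7.36 there and higher, at 8.80 and 9.07, in replicates 3 and 5 at 96 weeks. Elovl3 was at 4.27 in that array and at 4.27 to 4.37 in all young kidneys. Log2 fold changes were positive for 1 of the 8 markers and negative for 7. Without that array the log2 fold changes of Lpin1, Mgll and Agpat2 were -0.66, 0.44 and 0.275.

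The old kidneys differed among themselves, and replicates 3 and 4 lay together at the low end for many of these genes. In 12 of the 38 genes (31.6%, against 14.2% of all genes) these were the 2 lowest of the 5 old arrays, namely Chpt1, Etnk1, Pcyt2, Crls1, Gpam, Agpat2, Agpat3, Lpin1, Mboat7, Dgat2, Pnpla2 and Mgll. In 3 genes, Pcyt1b, Pemt and Lpcat2, they were the 2 highest (7.89%, against 10.1% of all genes). Marker means of several cell types, though not of every list, set these 2 kidneys at an end. Those of macrophages (8.19 and 8.35) and of fibroblasts and pericytes (7.80 and 7.71, against 7.27 to 7.53) were the highest of the old kidneys. Those of the proximal tubule (11.68 and 11.57, against 11.75 to 11.86), distal convoluted tubule (8.83 and 9.61, against 9.98 to 10.07) and podocytes (7.33 and 7.30, against 7.45 to 7.63) were the lowest. Of the proximal tubule markers, however, Slc5a12 and Slc22a6 were highest of the old kidneys in replicate 3, at 12.29 and 10.54. The thick ascending limb mean was 11.47 and 11.28 in replicates 3 and 4, against 11.39 to 11.55. The T cell and the B and plasma cell means were higher in replicate 1 (6.79 and 7.38) than in replicate 3 (6.30 and 6.92). The part of any cell type in the lower values was not tested. With replicates 3 and 4 left out, Mgll (0.55, adjusted p = 0.013) and Etnk1 passed at an adjusted p under 0.05 in limma, as did 5.14% of all genes. Both are among the 12 genes above, so leaving out their lowest old values had to raise the difference. With these arrays left out the ages did not overlap for 11 of the 38 genes (28.9%, against 22.9% of all genes), with fewer arrays to overlap.

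**Figure D3:**
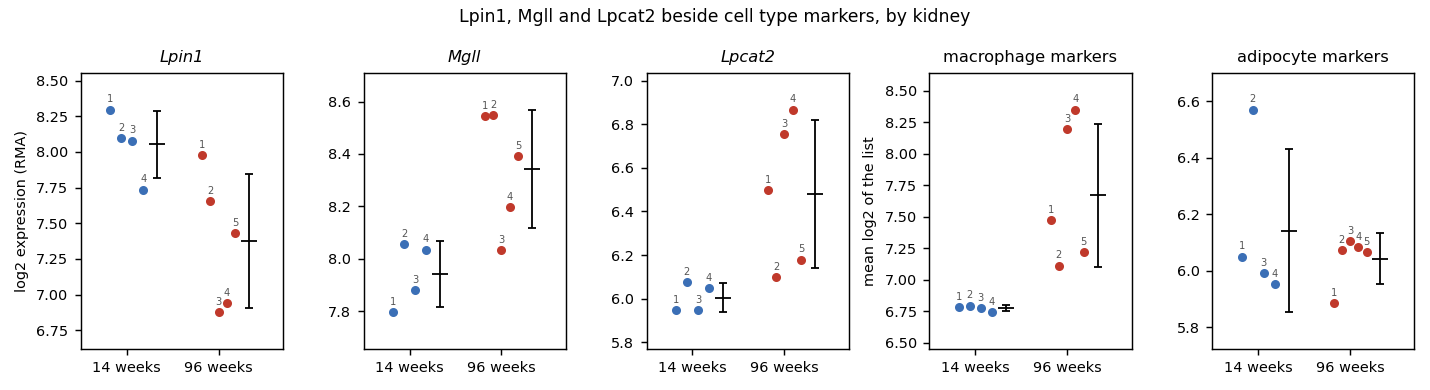
RMA log2 expression of Lpin1, Mgll and Lpcat2 and the mean log2 level of 12 macrophage and 8 adipocyte markers in each kidney (vertical axes). Points are mice with their replicate number and the black mark is the mean with 1 SD. Among the old kidneys, replicates 3 and 4 are lowest for Lpin1 and Mgll and highest for Lpcat2 and the macrophage mean. Replicate 2 at 14 weeks is highest for the adipocyte mean at 6.57.

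Among genes around these enzymes, 10 of 106 passed at an adjusted p under 0.05 in limma (9.43%, against 6.72% of all genes), 5 higher and 5 lower. With quantile normalization repeated, 2 were higher and 4 lower. Of 32 other synthesis genes 3 were higher and 1 was lower. Cdipt, the phosphatidylinositol synthase, rose from values of 7.37, 7.54, 7.56 and 7.44 to 7.83, 7.89, 7.65, 7.81 and 7.85, with no overlap (log2 fold change 0.33, SE 0.063, adjusted p = 0.0171). Slc44a2, a choline transporter-like protein, rose by 0.25 (adjusted p = 0.044), and Flvcr1, a membrane protein described as an exporter of heme and a carrier of choline, by 0.42 (adjusted p = 0.048). Gpat2, a mitochondrial acyltransferase of the first step, fell by 0.39 on the log2 scale (adjusted p = 0.038). Slc44a2, Flvcr1 and Gpat2 passed in 5, 5 and 8 of 20 alternative settings and Cdipt in 18.

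Phospholipases and other lipases gave 2 higher and 3 lower genes of 40 (12.5%, against 6.72% of all genes). Gdpd3, a lysophospholipase D of the endoplasmic reticulum, rose from 9.04, 8.92, 8.94 and 8.93 to 9.87, 9.61, 9.40, 9.82 and 9.52. The log2 fold change was 0.68 (SE 0.094, adjusted p = 0.0055). Napepld, which releases N-acylethanolamines from phospholipids, was at 7.82, 7.79, 7.76 and 7.57 and fell to 7.21, 7.33, 7.37, 7.20 and 7.26 (log2 fold change -0.46, SE 0.064, adjusted p = 0.0057). These 2 genes passed in all 20 alternative settings, while Pld3 passed in 12, Ces1d in 11 and Plb1 in 9, none of these 3 by the methods' t-test. Pld3 rose by 0.32 (adjusted p = 0.0215). It belongs to the phospholipase D family by sequence and is known as a lysosomal exonuclease. Plb1, a brush border phospholipase B, fell by 0.28 on the log2 scale (adjusted p = 0.0353). Ces1d, a triglyceride hydrolase with closely related neighbouring genes whose probes may share signal, fell by 0.72 on the log2 scale (SE 0.17, adjusted p = 0.0345), from 10.79, 10.26, 10.36 and 10.02 to 9.85, 9.98, 9.55, 9.28 and 9.51.

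None of 12 lipid droplet protein genes passed in limma or by the methods' t-test after adjustment. At an unadjusted p under 0.05 in limma 4 passed (33.3%, against 28.5% of all genes). Plin2, the general droplet coat protein, differed by 0.34 (log2) with no overlap between the ages (adjusted p = 0.073), and Plin5, the coat protein of oxidative tissue, by -0.20 (adjusted p = 0.091). Of 22 regulators of lipid genes only Ppargc1a passed after adjustment (4.55%, against 6.72% of all genes). Ppargc1a, a coactivator of mitochondrial and fatty acid oxidation genes, had values of 11.21, 11.22, 11.08 and 11.36 at 14 weeks and fell to 10.92, 10.75, 10.44, 10.71 and 10.80 at 96 weeks (log2 fold change -0.49, SE 0.094, adjusted p = 0.0171). No old kidney reached the young range. Ppargc1a passed in 18 of 20 alternative settings but not by the methods' t-test (adjusted p = 0.066). The glucocorticoid-induced factor Klf15 differed by -0.33 (log2, adjusted p = 0.11). Over 10 proximal tubule markers the mean level was 11.70 to 11.78 at 14 weeks and 11.57 to 11.86 at 96 weeks, with 5 of the 10 higher and 5 lower in sign.

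**Figure D4:**
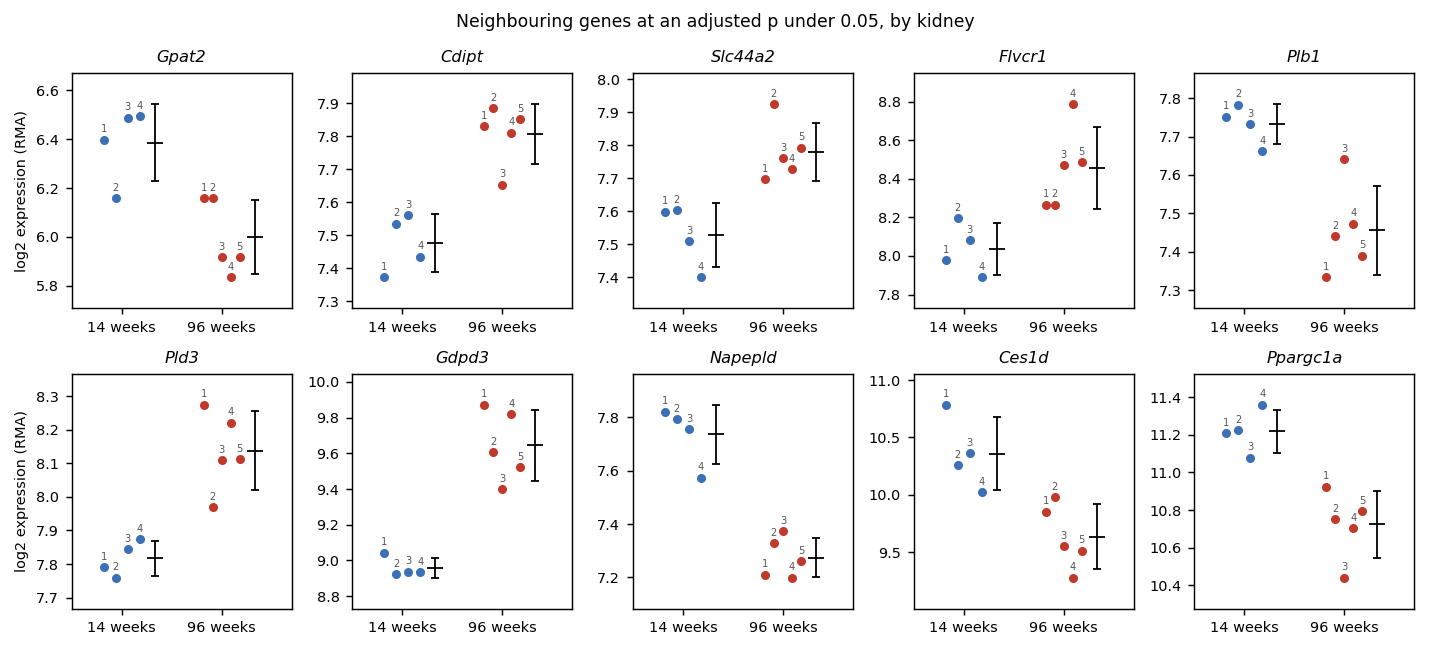
RMA log2 expression in each kidney (vertical axis, scaled per gene) of the 10 neighbouring genes at an adjusted p under 0.05 in limma. Points are mice with their replicate number (4 at 14 weeks, 5 at 96 weeks) and the black mark is the mean with 1 SD. Groups are apart in every panel but Gpat2, in which the highest old and lowest young kidneys share 6.16.

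Equal values in different arrays limit some of these estimates. Of the 38 genes 14 (36.8%, against 57.3% of all genes) had the same value in at least 2 arrays. Pgs1 shared 1 value in 6 arrays, and Pisd, Agpat4 and Mboat2 in 4 each. The SD of Pgs1 at 96 weeks was 0.0022 for this reason and does not measure the spread between mice.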

How the data were processed

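RNA was hybridized to Affymetrix Mouse Gene 1.0 ST arrays. The values used are log2 expression levels that the authors deposited for 35557 probe sets, made from the scans by RMA with quantile normalization between arrays. The tool was Affymetrix Power Tools (1.12.0), and the genome build is not given in the sources used here. Of the probe sets 21789 carried 1 gene symbol, 1621 several and 12147 none. A gene was represented by its brightest probe set with 1 symbol, and each of the 38 members had 1. Of the neighbouring genes that passed, Plb1 had 7 such probe sets and Flvcr1 and Ppargc1a had 2 each. Ages were compared over all 19938 genes with limma 3.58.1 (lmFit, eBayes) in R 4.3.3 and adjusted after Benjamini and Hochberg. The test was checked on simulated arrays. The members, lists and settings were chosen with earlier results of these data known. Values per kidney are given for members with an unadjusted p under 0.05 or without overlap, and for roles without such a member for the one with the smallest p, and neighbouring genes are named that passed or had the 2 smallest p-values of their list. Signal over background was not used. Precision is limited by the number of arrays. Correlations between arrays lay between 0.982 and 0.9967 and no pair was identical. The p-values set the age difference against the spread between these mice, which limma moderates with that of all genes. Alternatives covered the test, variance model, array weights, a filter below the 30th percentile, scaling, probe sets, the replicate block and leaving out arrays. Repeated quantile normalization and cyclic loess were run on the deposited values of only the 21789 probe sets with 1 symbol. The promoter windows came from a RefSeq table of GRCm38.p6. The methods' t-test is Student's test for each gene.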

Additional observations from a re-analysis of the deposited data

Results flagged for a closer look

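In 7 of 102 groups examined (51 genes at 2 ages) a single kidney lay far from the rest of its group for their range. Chance gives about 1 in 20 for normally distributed values without ties. The groups of Pisd, Lpin3 and Mboat7 below hold equal values, so for them that rate is only a rough guide. At 14 weeks, Ptdss1 was at 8.12 in replicate 4 and at 8.35 to 8.39 in the others. Pisd was at 6.34 in replicate 1 against 6.27 to 6.28, Lpin2 at 8.85 in replicate 2 against 8.91, and the neighbouring gene Gdpd3 at 9.04 in replicate 1 against 8.92 to 8.94. At 96 weeks, Ptdss2 was at 7.15 in replicate 4 against 7.39 to 7.49. Lpin3 was at 6.26 in replicate 3 against 6.31 to 6.33, and Mboat7 at 6.01 in replicate 2 against 5.87 to 5.90. Another group met the same measure only because its other values were tied: Pgs1 at 96 weeks was at 5.82 in replicate 1 and at 5.82 in the others.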

How the results depend on the processing

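All 28 genes named with values (15 members and 13 neighbours) kept their sign in the 20 alternatives. No member passed at an adjusted p under 0.05 in 13 of them. The number that passed was 2 with array weights (7.98% of all genes) and 2 with a filter on dim genes (11.3% of the genes kept), Agpat2 and Mgll in both. It was 1 with repeated quantile normalization (Lclat1, 5.28% of all genes). With replicates 3 and 4 at 96 weeks left out it was 2 (Etnk1 and Mgll, 5.14% of all genes). With 1 array left out it was 0 to 1 (2.65% to 5.69% of all genes). Lpin1 passed without replicate 1 at 96 weeks, Mgll without replicate 3 and Agpat2 without replicate 4. Each of these was the old kidney nearest the young mean for its gene, so leaving it out had to enlarge the difference. At the thresholds of the methods the count was 0 to 1 with 1 array left out, and 0 with replicates 3 and 4 left out. The number of members without overlap was 4 to 9 with 1 array left out (7 without replicate 2 and 9 without replicate 4 at 14 weeks) and 11 with replicates 3 and 4 at 96 weeks left out. Fewer arrays overlap less for all genes too: the share over all genes was 13.3% with every array, 18.3% without replicate 2 and 16.6% without replicate 4 at 14 weeks (members 18.4% and 23.7%), and 22.9% with both old arrays left out (members 28.9%). Of the neighbouring genes 3 passed by the methods' t-test (1.84% of all genes) and 6 with repeated quantile normalization (5.28% of all genes). With cyclic loess 6 passed (4.69% of all genes) and over all probe sets 6 (5.19% of all probe sets). With 1 array left out 4 to 9 passed (2.65% to 5.69% of all genes). The cause was not tested.

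Replicate numbers 1 to 4 are shared by the ages, and the labels do not say what the number stands for. Deviations of same-numbered arrays over all genes correlated at 0.076, 0.021, -0.037 and 0.012. Such values cannot show whether same-numbered arrays were handled together. With the number as a replicate block, 0 members and 4 neighbouring genes passed, and 368 of all genes in place of 1339. Over all genes 367 passed by the methods' t-test and 528 to 1135 with 1 array left out. With 4 and 5 arrays, whole tissue and no signal over background, small differences in dim genes such as Pcyt1b are poorly resolved.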
